A study of Mus musculus with 4 samples.

Results

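The Gadd45 family comprises Gadd45a, Gadd45b and Gadd45g, 3 related stress-response genes, and was followed here in liver from male mice of the inbred strain C57BL/6J at 4, 8, 13 and 21 months of age. The members were taken by gene symbol, from probe sets annotated to a single gene. The family itself was selected on the differences between these same arrays, so the levels of Gadd45a and Gadd45g below are a description and support nothing beyond themselves. All 3 members were found, among 18193 genes with such a probe set, and all 3 passed the filter on level that left 11587 genes. The mice arrived at 4 weeks of age and ate a low-fat diet without restriction, and the labels name no engineered allele. Each array carried RNA combined from the livers of 6 animals of one age, so every age is represented by 1 value per probe set. With 1 array for each of 4 ages, differences could not be tested, variation among animals could not be seen, and precision is limited by that number. All levels and differences are on the log2 scale, where 1 unit is 2-fold.

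Gadd45 proteins are small acidic nuclear proteins without known enzymatic activity that work by binding others. They bind and activate the kinase Map3k4, which leads to the p38 and JNK stress kinases, and they also bind the replication clamp Pcna, the cyclin-dependent kinase Cdk1 and the cell cycle inhibitor Cdkn1a. Through these partners the family is linked to growth arrest, DNA repair, removal of DNA methylation and cell survival or death. Gadd45a is known as a target of p53, of FoxO factors and of the stress factor ATF4. Gadd45b is induced in mouse liver through NF-kB, TGF-beta and the nuclear receptor CAR, and Gadd45g is induced by cytokines and other stresses.

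The sequence upstream of each gene is shown because the 3 members had 3 different age profiles, and these windows hold the proximal promoters. The sequences are from RefSeq, build GRCm38.p6, and each is the 250 bases before the annotated start site, 5′ to 3′ on the gene's own strand. The Gadd45a window is chr6:67037408-67037657 on the minus strand, the Gadd45b window chr10:80929841-80930090 on the plus strand and the Gadd45g window chr13:51846425-51846674 on the plus strand. Capitals mark matches, on either strand, to any of 11 short motifs.

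Gadd45a: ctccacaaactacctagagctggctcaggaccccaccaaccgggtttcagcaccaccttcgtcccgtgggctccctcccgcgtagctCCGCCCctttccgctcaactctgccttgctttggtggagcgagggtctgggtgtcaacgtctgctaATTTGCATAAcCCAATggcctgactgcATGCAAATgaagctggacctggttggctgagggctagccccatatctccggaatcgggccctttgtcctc
Gadd45b: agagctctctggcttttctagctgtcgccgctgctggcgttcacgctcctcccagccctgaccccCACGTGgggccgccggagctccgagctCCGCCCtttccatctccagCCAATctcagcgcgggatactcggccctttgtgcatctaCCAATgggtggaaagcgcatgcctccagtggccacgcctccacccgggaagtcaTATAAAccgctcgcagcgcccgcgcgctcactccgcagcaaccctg
Gadd45g: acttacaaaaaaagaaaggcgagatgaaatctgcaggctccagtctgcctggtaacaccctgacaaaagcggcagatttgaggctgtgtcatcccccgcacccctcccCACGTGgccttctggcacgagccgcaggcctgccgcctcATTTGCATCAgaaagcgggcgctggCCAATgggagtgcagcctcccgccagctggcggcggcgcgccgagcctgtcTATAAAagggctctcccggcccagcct

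Each window held 5 matches. The octamer, ATGCAAAT, bound by POU factors such as Oct-1, occurred 2 times upstream of Gadd45a and once upstream of Gadd45g, and was found in 1.60% of 32851 upstream windows of the same length. In Gadd45a the octamers began 97 and 70 bases before the start site and lay on either side of a CCAAT box. The CCAAT box, the letters CCAAT bound by NF-Y, was the only motif present in all 3, with 2 copies in Gadd45b, and 33.8% of all windows had it. Gadd45b and Gadd45g shared an E-box, CACGTG, which bHLH factors including clock proteins and Myc bind (6.02% of windows), and a TATA box, TATAAA (12.4% of windows). Neither was matched in the Gadd45a window. A GC box, GGGCGG (32.7% of windows), was matched in Gadd45a and Gadd45b. The D-box TTATGNAA (3.07% of windows), a site for PAR-bZIP factors, matched in Gadd45a and overlapped its upstream octamer, while the ATF4 composite site TGATGNAA (3.45% of windows) matched in Gadd45g and overlapped the octamer there. The letters of the CRE (TGACGTCA, 1.55% of windows), AP-1 (TGANTCA, 6.75%), FoxO (GTAAACA, 3.17%) and STAT (TTCNNNGAA, 7.02%) sites were not in any of the 3 windows, which says nothing of sites elsewhere. The matches are descriptions of letters, not of binding.

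**Figure D1:**
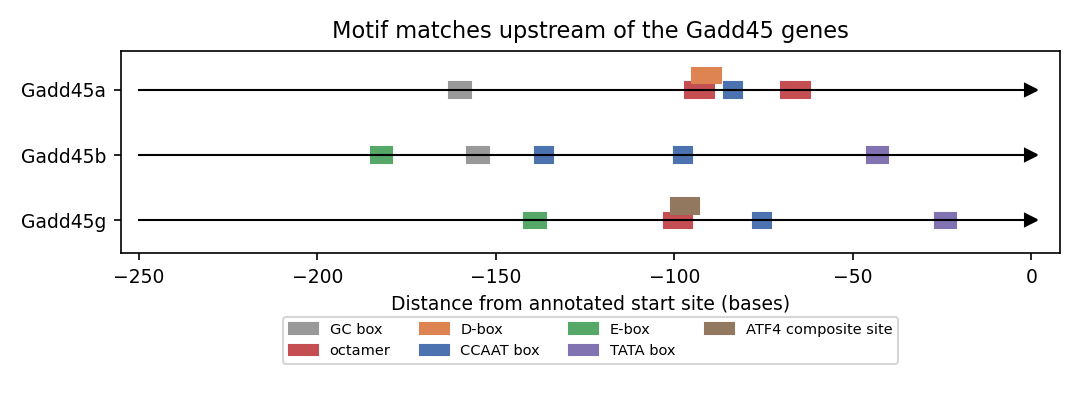
Positions of motif matches in the 250 bases upstream of each Gadd45 gene, with distance from the annotated start site in bases on the horizontal axis and 1 row per gene. Boxes are matches coloured by motif, overlapping matches are drawn higher, and only Gadd45a has 2 octamers while Gadd45b and Gadd45g have the E-box and the TATA box.

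Gadd45a was low at 4 months and higher at every later age. Its single probe set, 1449519_at, read 5.15 at 4 months, 6.74 at 8 months, 6.52 at 13 months and 6.67 at 21 months. The 3 later arrays lay within 0.22 of each other and all were at least 1.37 above the 4-month array. The differences were 1.59 at 8 vs 4 months, which is 3.01-fold, 1.37 at 13 vs 4 months, or 2.58-fold, and 1.52 at 21 vs 4 months, or 2.87-fold. These 3 differences share the 4-month array, so a deviation of that single pool would appear in each of them. After 8 months the gene differed little, by -0.22 at 13 vs 8 months, 0.15 at 21 vs 13 months and -0.07 at 21 vs 8 months. From high to low the order of ages was 8, 21, 13 and 4 months, and without replicates the first 3 in that order, 0.07 and 0.15 apart, cannot be ranked.

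Among the 11587 genes, 12 (0.104%) were at least 2-fold higher at 8 vs 4 months, and Gadd45a had the 3rd largest difference. At 13 vs 4 months 21 genes (0.181%) passed 2-fold and Gadd45a was 6th, and at 21 vs 4 months 65 (0.561%) passed and it was 18th. Being at least 2-fold above 4 months at each later age, a rule written after the profile was seen, held for 3 genes (0.0259%). The other two were Wfdc2, a secreted whey acidic protein family member, and Cidea, a lipid droplet protein. Wfdc2 was at 4.99, 6.06, 6.10 and 6.54 from youngest to oldest, and Cidea at 2.69, 3.87, 3.84 and 6.71. Cidea began below the filter level of 3.74 and Gadd45a did not. For scale, the median size of the difference between 8 and 4 months over the 11587 genes was 0.09.

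Gadd45g did not mirror the Gadd45a course, which differed little after 8 months. It lay on the opposite side of its 4-month level and was lower at each later age, in near-equal steps. Its probe set 1453851_a_at, of the kind that can match several transcripts of one gene, read 7.22, 6.76, 6.25 and 5.75 at 4, 8, 13 and 21 months. Each array was below that of the age before it. The steps were -0.46 at 8 vs 4 months, -0.51 at 13 vs 8 months and -0.50 at 21 vs 13 months, which are 1.38-fold, 1.42-fold and 1.41-fold lower. The ages are not evenly spaced, so equal steps do not mean an equal difference per month. Over the whole span the difference was -1.47, or 2.77-fold lower, and at 13 vs 4 months it was -0.97.

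At 21 vs 4 months only 4 of 11587 genes (0.0345%) were at least 2-fold lower, and Gadd45g was the lowest of all. For 21 vs 8 months the same size downward was reached by 15 genes (0.129%), with Gadd45g at -1.01 and 13th from the lowest. With each array centred on its median this value was -0.98, just short of 2-fold. A level lower at each of the 3 steps was seen in 364 genes (3.14%). A step of at least 0.4 downward each time, a size chosen after the values were seen, held for 1 gene (0.00863%), Gadd45g itself. Each single step was less exceptional, at ranks 106, 64 and 97 from the lowest.

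Gadd45b, read by 3 probe sets, showed no such difference. The brightest, 1450971_at, was at 7.07, 7.11, 7.29 and 7.17 at the 4 ages, a range of 0.22. Probe set 1449773_s_at, whose probes can match more than one transcript, was at 6.29, 6.34, 6.28 and 6.15. The dimmest, 1420197_at, was at 4.57, 4.77, 4.57 and 4.32. The 3 probe sets did not share a direction over the whole span, with differences at 21 vs 4 months of 0.10, -0.14 and -0.25. At 8 vs 4 months all 3 were higher, by 0.04 to 0.20, and at 21 vs 13 months all 3 were lower, by -0.12 to -0.25. The widest disagreement was at 21 vs 8 months, from -0.45 to 0.06. Over the 4796 genes with at least 2 probe sets above the filter, the differences of a gene's probe sets at 21 vs 8 months spanned a median of 0.18 and a 95th percentile of 0.56. The Gadd45b disagreement was wider than that median and narrower than that percentile. None of the 3 probe sets reached 1.5-fold in any of the 6 comparisons.

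**Figure D2:**
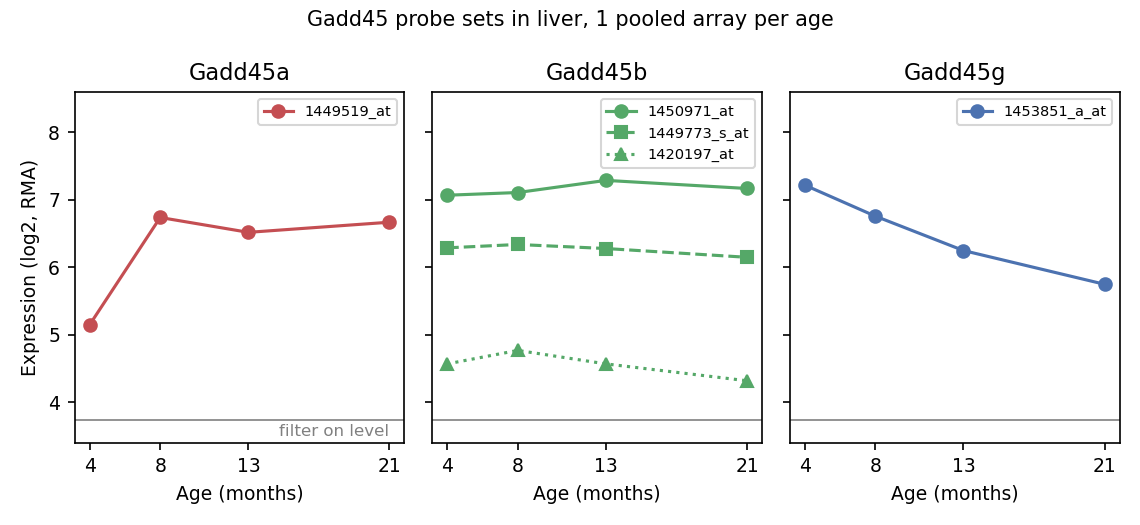
Expression of every Gadd45 probe set (log2, RMA) against age in months, 1 panel per gene, 1 point per pooled array and no error bars because there are no replicates. Gadd45a is at 5.15 at 4 months and 6.74 at 8 months, the 3 Gadd45b probe sets stay within 0.45, and Gadd45g goes from 7.22 at 4 months to 5.75 at 21 months. Heights of different probe sets are not comparable, only the course along each line.

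Side by side, the difference of Gadd45a exceeded that of Gadd45g by 2.99 at 21 vs 4 months. Of that, 2.05 lay between 4 and 8 months, where Gadd45a was higher and Gadd45g lower. From 8 to 21 months it was a further 0.94, with -0.07 for Gadd45a and -1.01 for Gadd45g. As Gadd45a and Gadd45g have 1 probe set each, neither difference could be checked with a second probe set.

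**Figure D3:**
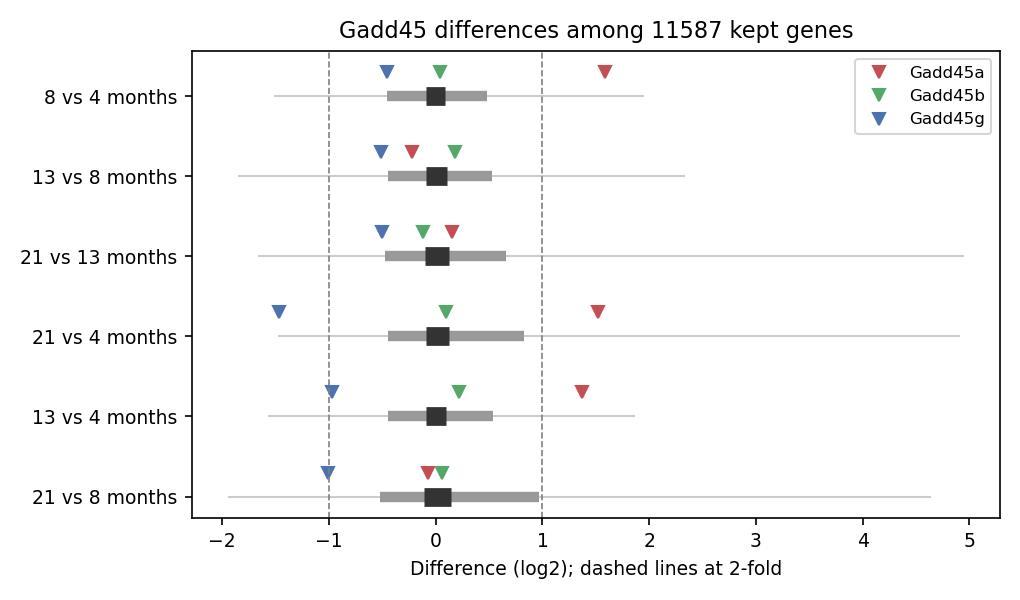
Differences between ages (log2, horizontal) for the 6 pairs of ages, with Gadd45a, Gadd45b and Gadd45g as triangles above the distribution of all 11587 kept genes. Black bars hold the middle of the distribution from the 25th to the 75th percentile, grey bars the 1st to 99th percentile and thin lines the full range, and Gadd45g lies at the left end of that range at 21 vs 4 months.

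The arrays were alike, with medians of 3.73 to 3.76 and Pearson's r across probe sets of 0.994 to 0.996 for every pair, where probe sets are not independent replicates. Liver identity was clear, as 8 measured hepatocyte markers, among them Alb and Apoa1, averaged 12.3 to 12.4 at every age. Other cell types differed between the pools. The 13 macrophage and Kupffer cell markers averaged 7.57, 7.10, 7.71 and 8.35 at 4, 8, 13 and 21 months, and all 13 were lower at 8 vs 4 months and higher at 21 vs 4 months, from Clec4f with 0.51 to Mpeg1 with 1.39. Their average was thus lowest at 8 months and highest at 21 months. The 6 neutrophil markers averaged 4.37 to 5.35 and the 6 B and plasma cell markers 5.40 to 6.24, both highest at 21 months. These averages were not shared evenly. At 21 vs 4 months 3 of 6 neutrophil markers were at least 1.5-fold higher, from Elane with -0.11 to Prtn3 with 2.73. Of the B and plasma cell markers 2 of 6 were, from Cd22 with -0.01 to Ighm with 2.84 and a median of 0.235. Of all genes 2.11% were as much higher. T and NK cell (4.26 to 4.41), biliary (4.04 to 4.32), stellate and fibroblast (7.16 to 7.39) and sinusoidal endothelium (7.11 to 7.29) averages kept within narrower ranges. Single markers differed more at 8 vs 4 months, in both directions. Marco of the macrophage list differed by -1.46 and Lyve1 of the sinusoidal endothelium list by -0.92. The biliary keratin Krt19, left out of its average by the filter, was at 3.48, 4.99, 3.32 and 2.99, the biliary marker Tff2 at 4.44, 4.99, 4.42 and 4.01, and the neutrophil marker Ltf at 3.28, 5.22, 3.53 and 3.56. The 6 neutrophil markers as a list had 3 higher and 3 lower at 8 vs 4 months, with a median of -0.03. At 13 months Krt19 and Tff2 were below their 4-month levels and Ltf was 0.25 above its own. The T and NK cell marker Gzma, also left out of its average by the filter, was at 3.09, 2.98, 3.28 and 4.14. Of the 5 kept T and NK cell markers 3 were higher and 2 lower at 21 vs 4 months. They ran from Cd3e with -0.09 to Gzmb with 0.58. The erythroid and adipose lists had 1 marker each above the filter, Alas2 with -0.12 and Fabp4 with 0.35 at 21 vs 4 months. In pooled tissue fewer cells of a type and less RNA per cell cannot be told apart, and the part of cell makeup in the Gadd45 differences was not tested.

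The direct protein partners of the family were read beside it. Of 11 listed partners 8 had a single-gene probe set, and 0 of 8 differed by 1.5-fold at 8 vs 4, 21 vs 8 or 21 vs 4 months. Over all 11587 genes 0.501% were higher and 0.354% lower by that much at 8 vs 4 months, 2.66% and 0.699% at 21 vs 8 months, and 2.11% and 0.423% at 21 vs 4 months, so a count of 0 among 8 is near the background. Their median difference at 21 vs 4 months was -0.01, beside 0.01 over all 11587 genes. Map3k4, the kinase that Gadd45 proteins activate, was at 6.34, 6.29, 6.45 and 6.24. Pcna, the clamp of DNA polymerases, was at 8.76, 8.79, 8.93 and 8.98. Cdkn1a, the p21 inhibitor, was at 5.82, 5.72, 5.84 and 6.12. That is 0.30 over the span, while its second probe set, at 4.68, 4.86, 4.43 and 4.70, differed by 0.02. Cdk1, the mitotic kinase, was at 5.03, 4.66, 4.84 and 4.84. Gadd45gip1, a mitochondrial ribosome protein that also binds Gadd45 proteins, was at 7.14, 7.21, 7.21 and 7.12. The nuclear receptor Ppara, also reported to bind the family, was at 9.71, 9.84, 9.65 and 9.51. Ccnb1, Map2k7 and Tdg were not analysed here.

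Downstream of Map3k4, 16 of 19 listed genes of the p38 and JNK cascade were above the filter. At 21 vs 4 months 1 of the 16 was at least 1.5-fold lower and 0 higher, with a median of -0.04, where 0.423% of all genes were lower and 2.11% higher by that much. The 1 gene was Map2k6, a kinase directly upstream of p38, at 5.38, 5.07, 5.23 and 4.70, a difference of -0.68. Map2k3, another such kinase, had the highest difference of the 16, 0.17. The p38 kinase Mapk14 was at 8.64, 8.59, 8.52 and 8.59 and the JNK kinase Mapk8 at 6.71, 6.72, 6.65 and 6.63. Of 12 MAP kinase phosphatases and feedback genes 11 were above the filter, and 0 of the 11 differed by 1.5-fold at 8 vs 4, 21 vs 8 or 21 vs 4 months, again near the shares over all genes. Dusp1, which switches off p38 and JNK, was at 9.41, 9.12, 8.78 and 8.92, with -0.49 at 21 vs 4 months and -0.63, past 1.5-fold, at 13 vs 4 months.

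Other listed stress genes, most of them named for growth arrest or DNA damage, took no common course with the family. Ddit3, which encodes the stress factor CHOP, was at 5.74, 5.51, 5.29 and 5.67. Ppp1r15a, known as Gadd34, was at 6.57, 6.63, 6.74 and 6.47. Ddit4, which restrains mTOR, had levels of 7.10, 5.59, 6.84 and 7.27. It was thus low at 8 months alone, by -1.51 against 4 months, while Gadd45a was above its 4-month level at 8, 13 and 21 months. Ddit4l lay below the filter. Of these 5 genes, 1 of 4 above the filter was at least 1.5-fold lower at 8 vs 4 months, beside 0.354% of all genes, and 0 of 4 passed at 21 vs 4 months. At 21 vs 8 months 1 of 4 was higher, Ddit4 with 1.68, beside 2.66% of all genes.

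Pathways that induce Gadd45a elsewhere were read beside it. The p53 list had 21 of 26 genes above the filter, without Trp53 and Bax, which were not analysed here. At 8 vs 4 months 0 of the 21 were past 1.5-fold in either direction, where 0.501% of all genes were higher and 0.354% lower by that much, and the median was -0.02. At 21 vs 4 months, where 2.11% of all genes were higher and 0.423% lower, the count was again 0 and the median 0.03. At 21 vs 8 months 1 was lower, beside 0.699% of all genes, the stress kinase Plk3 at -0.70. The integrated stress response list had 17 of 20 genes above the filter, none past 1.5-fold at 8 vs 4 or 21 vs 4 months, with Atf4 at 8.64, 8.58, 8.54 and 8.69. Against 8 months, where 2.66% of all genes were at least 1.5-fold higher at 21 months and 0.699% lower, Chac1, which degrades glutathione, was higher by 0.61 and the hormone Fgf21 lower at -0.83. All 19 FoxO factors and targets were above the filter. Foxo1 was at 7.35, 7.42, 7.26 and 7.39 and Foxo3 at 7.12, 7.25, 7.09 and 7.07. Of the 19, 1 was at least 1.5-fold lower at 8 vs 4 months, Igfbp1, an IGF binding protein, at -0.68, and 1 at 21 vs 8 months, Pdk4, which restrains glucose oxidation, at -1.04, beside 0.354% and 0.699% of all genes. None of the 19 passed at 21 vs 4 months. The repressor gene Bcl6 stood out at 13 months alone, at -1.11 against 8 months and 1.20 at 21 vs 13 months.

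Pathways that induce Gadd45b and Gadd45g were read in the same way. Of the 15 genes above the filter in the STAT3 and interleukin 6 list, 5 were at least 1.5-fold higher at 21 vs 4 months and 0 lower, beside 2.11% and 0.423% of all genes, with a median of 0.41. Stat3 itself, the transcription factor of that response, was at 8.30, 8.09, 8.37 and 8.93. Its 3 other probe sets did not share a direction, with 0.58, 0.15 and -0.11 at 21 vs 4 months, the last of them below the filter level at every age. The other 4 genes were targets of the pathway, the acute phase genes Lcn2 with 4.90, Saa2 with 4.60, Orm2 with 3.82 and Saa1 with 3.60. Gadd45b stayed within 0.22 over the same ages in its brightest probe set, and its other probe sets differed by -0.14 and -0.25 at 21 vs 4 months. Gadd45g was lower in that comparison, at -1.47. A link between this list and the family was not tested. At 8 vs 4 months 1 of the 15 was higher, beside 0.501% of all genes, the kinase gene Pim1 with 0.63. The NF-kB and TGF-beta list had 17 of 19 genes above the filter, without Nfkb1, which was not analysed here. At 21 vs 4 months 1 of the 17 was higher, beside 2.11% of all genes, the adhesion gene Icam1 with 0.71. The NF-kB subunit Rela read 7.90, 7.85, 7.90 and 7.90. Id1, an inhibitor of bHLH factors in the same list, was highest at 8 months, at 6.10, 7.12, 6.25 and 6.48. It was the 1 gene of the 17 at least 1.5-fold higher at 8 vs 4 months, with 1.02, beside 0.501% of all genes. At 21 vs 8 months 1 was higher, Icam1 with 1.05, and 1 lower, Id1 at -0.64, beside 2.66% and 0.699% of all genes. The CAR receptor, encoded by Nr1i3, was at 8.82, 8.75, 8.88 and 8.61. Its target Cyp2b10 was at 7.79, 6.82, 7.43 and 7.70 and the glutathione transferase Gstm3 at 9.20, 8.52, 8.86 and 9.45. Of 13 listed CAR and PXR genes 10 were above the filter. At 8 vs 4 months 2 of the 10 were at least 1.5-fold lower and 0 higher, beside 0.354% and 0.501% of all genes. At 21 vs 8 months 3 were higher and 0 lower, beside 2.66% and 0.699%. At 21 vs 4 months 1 was higher and 0 lower, beside 2.11% and 0.423%. The medians were -0.105, 0.12 and 0.02 in that order. Cyp2b9, a cytochrome expressed mainly in females, was at 3.69, 3.56, 5.55 and 7.48, with its first 2 levels below the filter.

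Hormone-responsive, immediate early and growth genes gave a mixed picture. In the glucocorticoid and fasting list 3 of 16 genes were at least 1.5-fold lower at 8 vs 4 months and 0 higher, beside 0.354% and 0.501% of all genes. They were Tsc22d3, a glucocorticoid-induced leucine zipper, at -0.84, Igfbp1 at -0.68 and the tyrosine aminotransferase gene Tat at -0.66. At 21 vs 4 months, where 2.11% of all genes were higher and 0.423% lower, 3 were higher, the metallothioneins Mt2 and Mt1 with 2.19 and 1.78 and the lipogenic factor Srebf1 with 0.90, and 2 were lower, Tsc22d3 at -0.71 and the lipase inhibitor Angptl4 at -0.67. Of 21 immediate early genes 2 were higher at 8 vs 4 months, beside 0.501% of all genes, Ccn1, a matricellular protein, with 0.71 and the nuclear receptor Nr4a1 with 0.69. At 21 vs 8 months Fos, a part of AP-1, was higher by 0.62 and Ccn1 was lower, at -0.66, beside 2.66% and 0.699% of all genes. At 21 vs 4 months 1 was lower, beside 0.423% of all genes, the growth regulator Myc, at 6.57, 6.43, 6.84 and 5.88. Of 26 listed cell cycle genes 16 were above the filter, and Mki67 and Top2a were among those below it. In these comparisons 0 of the 16 and 0 of 17 DNA repair and demethylation genes were past 1.5-fold. Between 0.354% and 2.66% of all genes passed in each direction, so counts of 0 are near the background. Of 12 apoptosis regulators 1 was past 1.5-fold, Bik, with -0.63 at 21 vs 8 months, where 0.699% of all genes were as much lower.

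Across all 15 lists, 198 distinct genes were above the filter. At 8 vs 4 months 4 of them (2.02%) were at least 1.5-fold higher and 6 (3.03%) lower, at 21 vs 8 months 15 (7.58%) and 6 (3.03%), and at 21 vs 4 months 10 (5.05%) and 4 (2.02%). The shares over all 11587 genes are given above, and the lists were chosen with results of these arrays known, so the gap between the shares is a description. The median difference of the 198 genes was -0.01 at 8 vs 4 months and 0.03 at 21 vs 8 months.

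**Figure D4:**
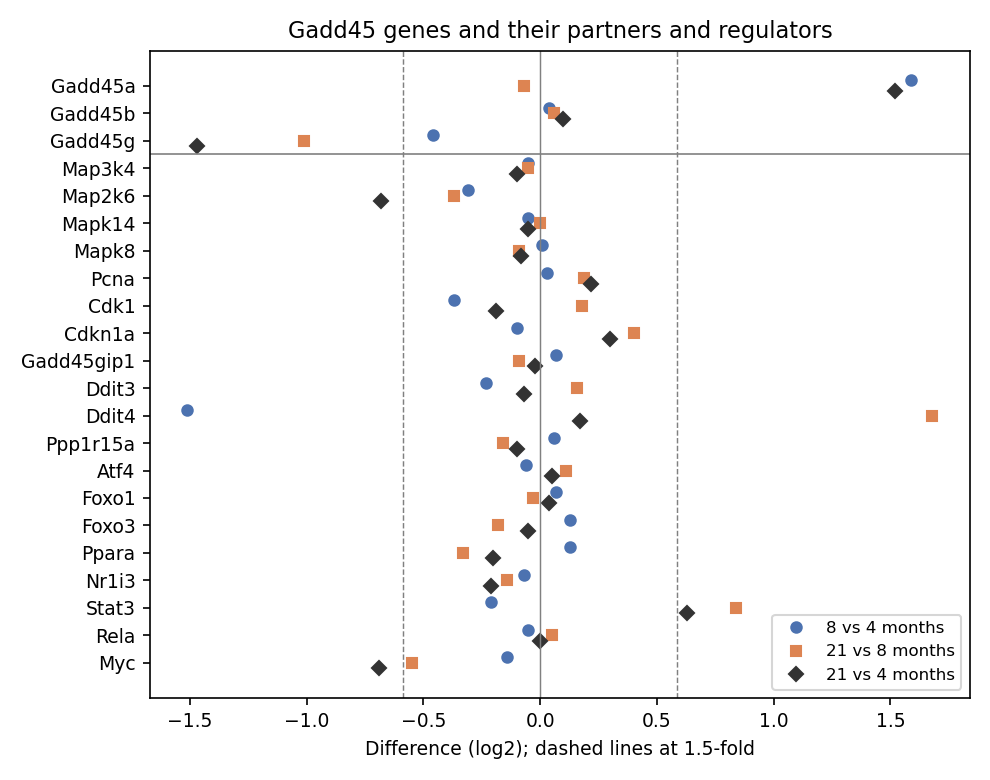
Differences (log2, horizontal) of the Gadd45 genes, above the grey line, and of protein partners, stress kinases and regulators below it, at 8 vs 4, 21 vs 8 and 21 vs 4 months. Each mark is a difference between 2 pooled arrays, most partners lie within the dashed 1.5-fold lines, and Ddit4 is at -1.51 and then 1.68.

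Genes with a profile most like each member were found by the root mean square difference between profiles, each centred on its own mean over the 4 ages. A smaller number means more alike, and with 4 points the likeness is a description. Nearest to Gadd45a were Wfdc2 (0.22), Dbp (0.27), Zfp991 (0.28), Mid1 (0.30) and Mup10 (0.30), while the root mean square of the Gadd45a profile itself was 0.65. Dbp, a PAR-bZIP factor whose level follows the time of day, was at 7.98, 9.07, 9.14 and 8.79, and its second probe set at 7.10, 8.05, 8.47 and 7.86. Mup10, a major urinary protein, was at 8.66, 9.61, 9.31 and 9.47. Closest to the Gadd45a profile with its sign turned were Rpl12, Tsc22d3 and Slc39a4, at 0.32, 0.32 and 0.33. Tsc22d3 was at 8.54, 7.70, 7.83 and 7.83, lower at the 3 ages where Gadd45a was higher. Its 3 other probe sets differed by -0.69, -0.27 and 0.16 at 8 vs 4 months, the last of them below the filter level at every age. No source used here gives the hour at which livers were taken, so time of day and age cannot be told apart for any of these genes.

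Nearest to Gadd45g were Hsd17b6 (0.21), Plppr2 (0.23), Itih5 (0.24), Cdh1 (0.25) and Slco1a1 (0.25), beside 0.55 for the Gadd45g profile itself. Plppr2 was at 4.47, 4.17, 3.84 and 3.62, the last of these below the filter level. Hsd17b6, a steroid and retinol dehydrogenase, was at 9.40, 9.12, 8.95 and 8.39. Slco1a1, an organic anion transporter expressed mainly in male liver, was at 10.38, 10.36, 9.87 and 9.59. Cdh1, which encodes E-cadherin, was at 6.99, 6.55, 5.96 and 6.07. These differences were smaller than that of Gadd45g at 21 vs 4 months, while at 13 vs 4 months Cdh1, at -1.03, was lower than Gadd45g at -0.97. Genes with the mirrored course came closer, namely Serpina7 (0.12), Ifi27 (0.13) and Slc3a1 (0.15). Serpina7, the thyroxine-binding globulin, was higher by 0.19 at 8 vs 4 months, by 0.51 at 13 vs 8 months and by 0.72 at 21 vs 13 months, and Ifi27, an interferon-induced gene, was at 8.49, 8.80, 9.20 and 9.62.

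For Gadd45b the nearest genes, Kalrn, Mrpl43, Neu1, Hint2 and Otulin, were within 0.01 to 0.02, and nearest to its mirrored profile were Pdcd11, Ccnl2 and Cplane2, each within 0.01. As many as 4355 genes (37.6%) lay within 0.1 of the nearly flat Gadd45b profile, and 0 genes lay within 0.1 of Gadd45a or of Gadd45g.

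**Figure D5:**
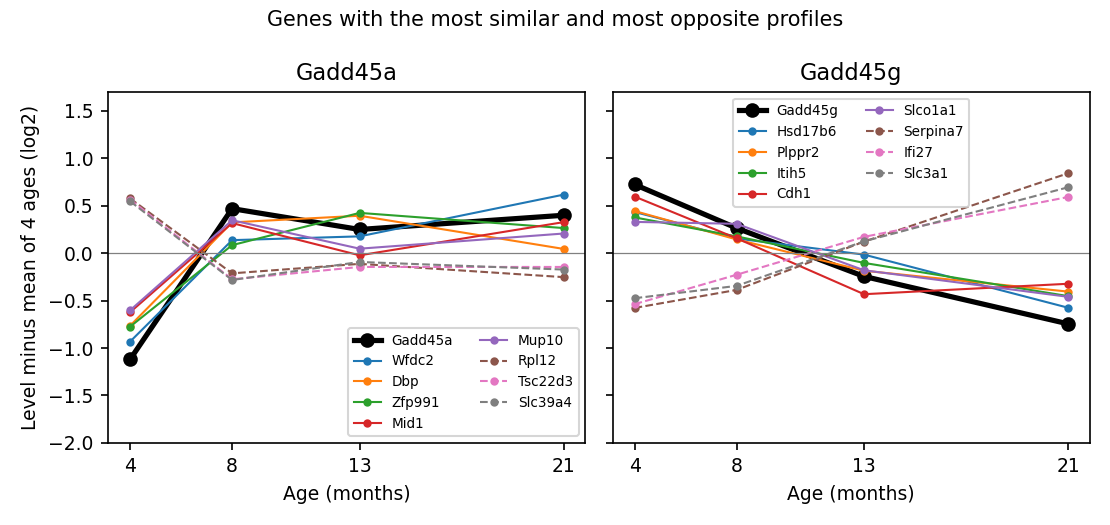
Profiles of Gadd45a (left) and Gadd45g (right) in black, centred on their mean over the 4 ages (log2, vertical) against age in months, with the 5 most similar genes as solid lines and the 3 nearest to the mirrored profile as dashed lines. Each point is 1 pooled array, Gadd45a and its neighbours are lowest at 4 months, and Gadd45g has a wider range than its solid-line neighbours.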

How the data were processed

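Liver RNA of 4 ages was measured on 4 arrays of 45101 probe sets, 1 pool of 6 mice each, grouped by the labelled age. The authors deposited log2 expression values, made with RMA per the submitters' processing notes. RMA corrects background, normalizes between arrays and summarises each probe set, so a shift of most genes would not show and dim differences are compressed. No source used here gives its version.

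Gene names came from the annotation of the array platform. Of the probe sets, 34945 named 1 gene, 932 several and 9160 none, and 64 were controls. Gadd45a and Gadd45g have 1 probe set each and Gadd45b 3. Each gene took its probe set with the highest mean, and genes with a mean of at least 3.74, the median of probe set means, were kept.

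With single arrays, differences were described by size and not tested. Genes were called at 2-fold, and list genes at 1.5-fold. The members and the 15 pathway and 10 marker lists were chosen with earlier results of these data known. Named genes were the members' probe sets, up to 3 list genes each way past 1.5-fold, direct partners and regulators, the 5 nearest and 3 mirrored profiles and extreme markers. Dusp1, Bcl6, Krt19, Tff2, Ltf, Gzma, Map2k3, Mapk14, Mapk8, Ddit4l, Ppp1r15a, Ppp1r15b, Mki67, Top2a and the genes sharing a member's rule were named after their values were seen. Alternatives were the mean over probe sets, median centring, quantile and cyclic loess normalization, 3 other filters, other thresholds, the list mean and another distance. Counting was tested on simulated data. Python 3.11.15, pandas 2.3.3, R 4.3.3 and limma 3.58.1 were used, limma for normalization only.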

Additional observations from a re-analysis of the deposited data

How the results depend on the processing

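With 1 array per age leaving out an array ends a comparison, and each value rests on 2 pools, with no measure of error between mice. No paired analysis was possible because no age has a second array.

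All 72 alternative values of the members, over 6 comparisons, kept their side of 2-fold except 1, Gadd45g at 21 vs 8 months, which was -0.98 with arrays centred on their medians. The other normalizations moved Gadd45a by at most 0.06 and Gadd45g by at most 0.04, and the mean over probe sets moved Gadd45b by up to 0.25. Not all of the 72 values could have changed side. For Gadd45a and Gadd45g, with 1 probe set each, the mean over probe sets equals the main value by construction. No Gadd45b probe set was near 2-fold in any comparison. Of 45 alternative background counts 30 stayed within 1.5 times. The count higher at 8 vs 4 months was 20 with no filter, 7 with a filter at the 75th percentile, 58 at 1.5-fold and 3 at 3-fold. Higher at 13 vs 4 months it was 12 with the 75th percentile filter, 97 at 1.5-fold and 4 at 3-fold. Higher at 21 vs 4 months it was 244 at 1.5-fold and 13 at 3-fold, and lower 49 and 0. Lower at 21 vs 8 months it was 23 with no filter, 8 with the 75th percentile filter, 81 at 1.5-fold and 3 at 3-fold. Of list genes at 2-fold, 1 was higher and 1 lower at 8 vs 4 months, 9 higher and 1 lower at 21 vs 8 months and 0 lower at 21 vs 4 months. With the mean over probe sets 2 were at least 1.5-fold higher at 8 vs 4 months and 2 lower at 21 vs 4 months, and with the 75th percentile filter 3 lower at 21 vs 8 months. Of the 5 genes nearest to Gadd45b 3 were shared with the mean absolute difference. Stricter thresholds and filters count fewer genes by construction, and the cause of the change with the mean over probe sets was not tested. Of 594 alternative list medians 541 moved by less than 0.1, and the T and NK cell and biliary lists had no gene left under the 75th percentile filter.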
